A study of Mus musculus with 6 samples.

Results

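The annexin genes Anxa1, Anxa2, Anxa3, Anxa4, Anxa5, Anxa6, Anxa7 and Anxa11 were compared between regulatory T (Treg) cells with and without the transcription factor Batf. They were chosen by name, as the calcium-binding family whose members partner with S100 proteins, and only probe sets annotated to exactly 1 gene were used. By this rule 7 of the 8 genes were measured, on 17 of the 34945 probe sets with 1 gene, among 18193 genes in all. The only probe set listed for Anxa11 is shared with Gm2260 and Gm2274, so Anxa11 has no value here.

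Both groups were CD4+ cells that carried a human CD2 reporter of Foxp3, taken without culture or treatment from C57BL/6 mice, out of spleen and lymph node. One group came from FoxP3hCD2.Batf+/+ mice and the other from FoxP3hCD2.Batf-/- mice, with 3 arrays each, and the reporter was common to both. In the Batf-/- mice the label names no cell type to which the loss was limited, and gives no age, sex or number of mice per array. The study asked how the transcriptome of Treg cells differs without Batf. Nothing in the labels ties an array to its own mouse, and the p-values therefore rest on a spread that may be technical.

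Annexins are cytosolic proteins that bind acidic phospholipids when calcium rises and so attach to the inner face of membranes, where they act in vesicle traffic, membrane repair and the organisation of actin. Some of them carry an S100 dimer on their N-terminal tail, as Anxa2 does with S100a10, and Anxa1 is also released and acts through formyl peptide receptors to limit inflammation. Batf is a basic leucine zipper factor that binds AP-1 elements with Jun proteins and, beside them, interferon regulatory factors such as Irf4. In T cells, several annexins and S100 proteins are known as genes of activated and memory rather than naive cells.

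The 250 bases before the start of Anxa1 and of Anxa2 are shown because Anxa1 had the largest difference of the family over all arrays and Anxa2 was the annexin with an AP-1 element in this window. Capitals mark the element TGANTCA, which reads the same on both strands. Sequences are from RefSeq, build GRCm38.p6, 5′ to 3′ on the gene's strand, at chr19:20390672-20390921 (minus strand) for Anxa1 and chr9:69453433-69453682 (plus strand) for Anxa2.
Anxa1: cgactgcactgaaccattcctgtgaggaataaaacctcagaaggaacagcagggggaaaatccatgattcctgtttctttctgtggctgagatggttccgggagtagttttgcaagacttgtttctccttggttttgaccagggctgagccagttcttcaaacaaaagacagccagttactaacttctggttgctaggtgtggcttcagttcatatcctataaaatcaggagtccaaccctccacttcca
Anxa2: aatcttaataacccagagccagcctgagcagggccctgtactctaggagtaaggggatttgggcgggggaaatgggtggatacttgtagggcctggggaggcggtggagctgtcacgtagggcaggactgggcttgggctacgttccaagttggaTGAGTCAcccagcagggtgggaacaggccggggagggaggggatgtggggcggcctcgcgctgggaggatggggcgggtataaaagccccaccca

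Of the 8 annexins, 6 matched the RefSeq promoter table, with 8 windows in all, and Anxa3 and Anxa6 had no entry. TGANTCA occurred in 1 of these 8 windows, that of Anxa2, where it begins 95 bases before the start. It occurred in 6.75% of the 32851 windows of the same length in the table. The composite elements for AP-1 with an interferon regulatory factor, on either strand, are TTTC placed 4 bases before the AP-1 element and GAAA placed directly before it. Both contain the AP-1 element, and they occurred in 0 of the 8 windows and in 0.0974% and 0.1% of all windows. The windows of S100a4 and S100a6 held 0 matches to these 3 elements. A match is a run of letters and not a measured binding site.

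None of the 7 measured annexins passed the threshold in Batf-/- Treg cells, while their S100 partners S100a4 and S100a6 fell, with log2 differences of -3.64 and -2.97. A gene was called at a Benjamini-Hochberg adjusted p below 0.05 over all genes (limma), which 208 genes, 1.14%, reached, and 151 genes, 0.83%, in the lower direction. Of the annexins 0 of 7 were called. The unadjusted p was below 0.05 in 2 of 7, Anxa1 and Anxa4, both lower, against 7.69% of all genes in either direction and 4.44% in the lower one. With so low a share called among all genes, a count of 0 among 7 is near the background. The log2 differences, Batf-/- minus Batf+/+, lay between -0.42 and 0.01, with a median of -0.13 against 0.0047 over all genes. Values are log2 levels set against the Batf+/+ median of each probe set. They do not show how abundant a transcript was, and the levels of different annexins cannot be ranked.

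Most annexins lay slightly lower in Batf-/- cells. The difference was below 0 in 6 of 7, against 48.2% of all genes. In Anxa1, Anxa4, Anxa5 and Anxa6 all 3 Batf-/- arrays were below all 3 Batf+/+ arrays, a separation seen in 6.55% of all genes, and in 0 of 7 annexins were they all above, against 5.5% of all genes. Between arrays of the same number, 6 of 7 annexins, all but Anxa3, were lower in all 3 pairs, against 17% of all genes. For Anxa1, Anxa4, Anxa5 and Anxa6 this follows from the separation just given, so only Anxa2 and Anxa7 add to it. These counts describe the 7 genes, and no test of the list was made. A slight lowering was not particular to annexins, since the Treg and T cell markers described below had a median of -0.11. That list was mixed, from -0.51 for Ikzf2 to 0.21 for Il2ra, with 6 of 8 genes below 0. The 95% interval of the difference, not adjusted for the number of genes, lay within 2-fold in either direction in all 7 annexins and within 1.5-fold in 6 of them, all but Anxa1. These bounds hold for the mean of a gene's probe sets and not for each probe set. On 1448213_at of Anxa1 the interval ran from -1.21 to -0.44, past 2-fold. On 1424176_a_at and 1457658_x_at of Anxa4 it reached down to -0.71 and -0.62, past 1.5-fold.

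**Figure D1:**
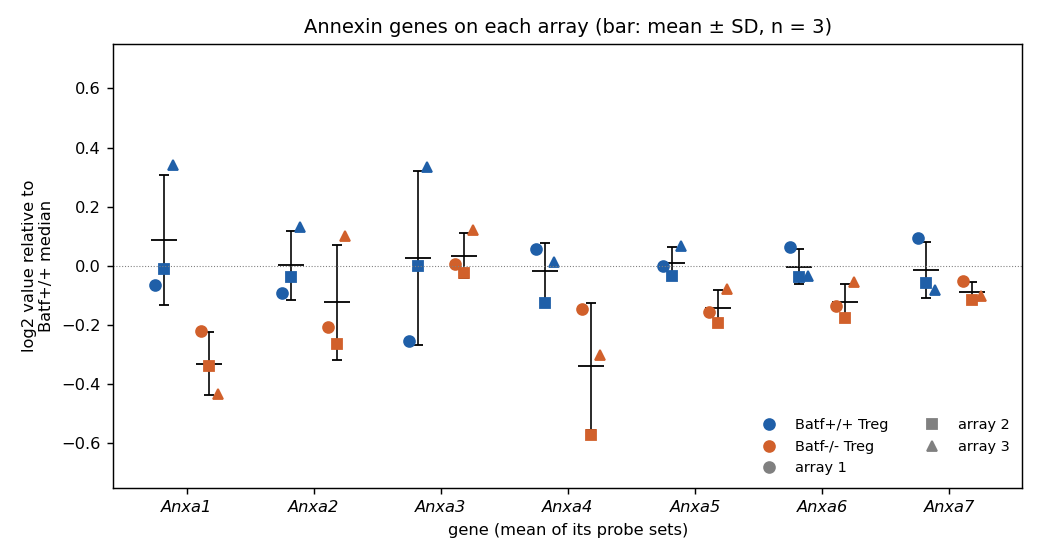
Level of each measured annexin on each array, as the log2 value relative to the Batf+/+ median (vertical axis), with Batf+/+ arrays in blue, Batf-/- arrays in orange, the array number as the marker shape, and the mean ± SD of 3 arrays in black. The genotypes do not overlap in Anxa1, Anxa4, Anxa5 and Anxa6, and they overlap in Anxa2, Anxa3 and Anxa7.

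Anxa1, the glucocorticoid-induced annexin that restrains inflammation, had the largest difference over all 6 arrays. Its log2 level was -0.06, -0.01 and 0.34 on Batf+/+ arrays 1, 2 and 3, and -0.22, -0.34 and -0.43 on Batf-/- arrays 1, 2 and 3. All Batf-/- arrays were lower, and Batf+/+ array 3 stood above the other Batf+/+ arrays. The difference was -0.42 ± 0.12 (SE, n = 3 arrays per genotype; 1.34-fold lower; 95% interval -0.68 to -0.15), with an unadjusted limma p of 0.0060 and an adjusted p of 0.228. Without Batf+/+ array 3 it was -0.29 (limma adjusted p = 0.427), and Anxa4, at -0.31, then had the larger difference.

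The Anxa1 value averaged probe sets that disagreed. On 1448213_at, which is annotated by a RefSeq mRNA, the log2 level was 0, -0.02 and 0.58 in Batf+/+ cells and -0.48, -0.69 and -0.75 in Batf-/- cells. This is a difference of -0.83 ± 0.17 (SE; 1.77-fold lower), with no overlap between genotypes and a limma adjusted p of 0.104 over all probe sets. On 1444016_at, annotated by another GenBank record, the levels were -0.13, 0 and 0.10 against 0.03, 0.02 and -0.11, which overlap, with a difference of -0.01 ± 0.09 (limma adjusted p = 0.9998). Within each array the former minus the latter ran from -0.02 to 0.48 in Batf+/+ cells and from -0.71 to -0.51 in Batf-/- cells. The file does not give which part of the transcript each probe set reads or how far each was above background.

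Anxa4, an annexin of secretory and epithelial membranes, came next. Its log2 level was 0.06, -0.13 and 0.01 on the Batf+/+ arrays and -0.15, -0.57 and -0.30 on the Batf-/- arrays. The groups were separated narrowly, since Batf-/- array 1 lay close to Batf+/+ array 2, and Batf-/- array 2 was the lowest. The difference was -0.32 ± 0.11 (SE; 1.25-fold lower; 95% interval -0.58 to -0.06; limma adjusted p = 0.431). Without Batf-/- array 2 it was -0.21 (limma adjusted p = 0.896), and after quantile normalization it was also -0.21. It moved the other way without Batf-/- array 1, to -0.42 (limma adjusted p = 0.189), and without Batf+/+ array 2, to -0.38. With the array number as a replicate block the limma adjusted p was 0.112.

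All 3 probe sets of Anxa4 lay lower. The differences were -0.37 on 1421223_a_at, -0.36 on 1424176_a_at and -0.24 on 1457658_x_at, with limma adjusted p of 0.226, 0.725 and 0.941. On 1421223_a_at the genotypes did not overlap, at 0.13, 0 and -0.05 against -0.25, -0.32 and -0.45. On the other probe sets Batf-/- array 2 was the lowest, at -0.74 and -0.65, and the genotypes overlapped. Without Batf-/- array 2 their differences were -0.18 and -0.0656. The suffix x of 1457658_x_at marks sequence shared with other transcripts.

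Anxa2, which forms a tetramer with S100a10 and binds actin and plasminogen activator, had a small difference. Its log2 level was -0.09, -0.04 and 0.13 in Batf+/+ cells and -0.21, -0.26 and 0.10 in Batf-/- cells. Batf-/- array 3 lay among the Batf+/+ arrays, so the groups overlapped. The difference was -0.13 ± 0.11 (SE; 95% interval -0.38 to 0.13; limma adjusted p = 0.978). Leaving out Batf-/- array 1, 2 or 3 gave -0.0834, -0.0559 and -0.24, and leaving out Batf+/+ array 3 gave -0.0602. With the median of its probe sets it was -0.0577. Between arrays of the same number it was lower in 3 of 3 pairs, by log2 values of -0.12, -0.23 and -0.03, and with the number as a replicate block its SE was 0.07 (limma adjusted p = 0.521).

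Of the 3 Anxa2 probe sets only 1437691_at separated the genotypes, at -0.07, 0.03 and 0 against -0.29, -0.14 and -0.21. Its difference was -0.20 ± 0.08 (SE; limma adjusted p = 0.679). On 1419091_a_at Batf-/- array 3 was at 0.23 while arrays 1 and 2 were at -0.33 and -0.53, and the difference was -0.16 ± 0.19. On 1437692_x_at it was -0.02 ± 0.15.

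**Figure D2:**
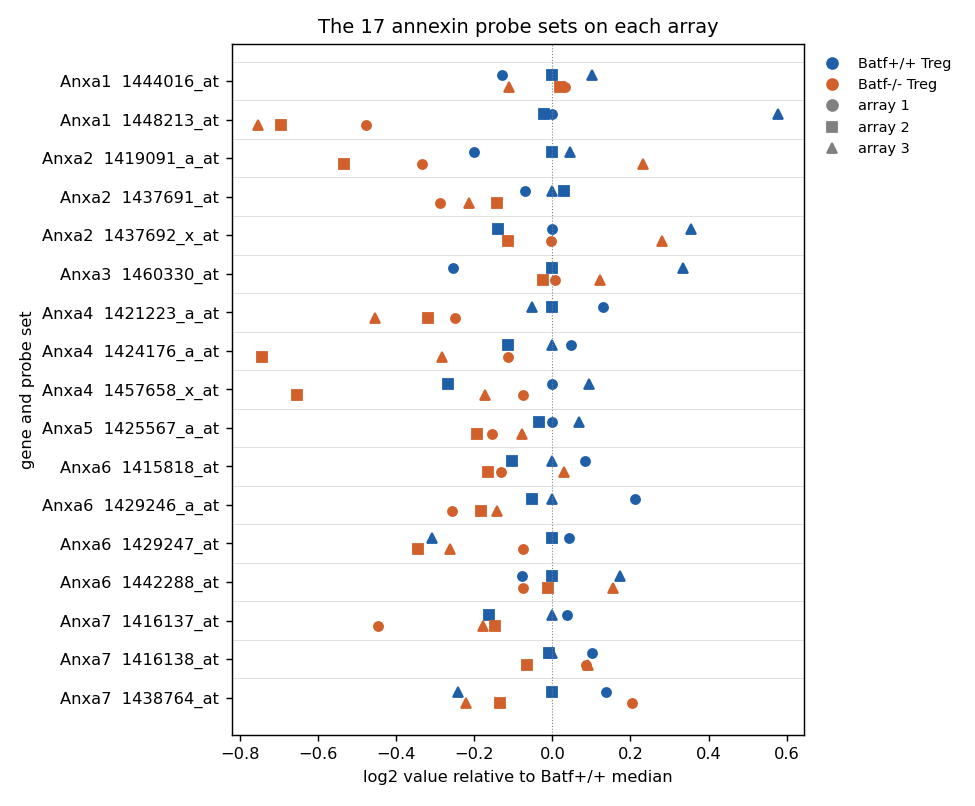
Log2 value relative to the Batf+/+ median (horizontal axis) of the 17 probe sets of 7 annexins (vertical axis) on each array, with Batf+/+ arrays in blue, Batf-/- arrays in orange and the array number as the marker shape. The genotypes separate on 1448213_at of Anxa1, 1437691_at of Anxa2, 1421223_a_at of Anxa4, 1425567_a_at of Anxa5 and 1429246_a_at of Anxa6.

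Anxa5, the annexin used as a probe for phosphatidylserine on dying cells, varied little between arrays. Its log2 level, from its 1 probe set, was 0, -0.03 and 0.07 in Batf+/+ cells and -0.16, -0.19 and -0.08 in Batf-/- cells. The genotypes did not overlap. The difference was -0.15 ± 0.07 (SE; 1.11-fold lower; 95% interval -0.32 to 0.02; limma adjusted p = 0.736).

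Anxa6, an annexin with a duplicated core that links membranes to the cytoskeleton and is abundant in lymphocytes, was at 0.07, -0.04 and -0.03 in Batf+/+ cells and -0.13, -0.18 and -0.05 in Batf-/- cells. The genotypes were separated by a narrow gap between Batf-/- array 3 and Batf+/+ array 2. The difference was -0.12 ± 0.08 (SE; 95% interval -0.29 to 0.05; limma adjusted p = 0.894). Its 4 probe sets gave -0.25 (1429246_a_at, limma adjusted p = 0.629), -0.14 (1429247_at), -0.08 (1415818_at) and -0.01 (1442288_at), and only 1429246_a_at separated the genotypes.

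Anxa7, or synexin, which promotes membrane fusion, was at 0.09, -0.06 and -0.08 in Batf+/+ cells and -0.05, -0.12 and -0.10 in Batf-/- cells, which overlap. The difference was -0.07 ± 0.08 (SE; 95% interval -0.25 to 0.10; limma adjusted p = 0.995). It was -0.02 without Batf+/+ array 1, and within the pairs of same-numbered arrays it was -0.14, -0.06 and -0.02. Its 3 probe sets gave -0.22 (1416137_at), 0.01 (1416138_at) and -0.02 (1438764_at), with adjusted p of 0.827 or more.

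Anxa3, known from neutrophils and other myeloid cells, was at -0.25, 0 and 0.33 in Batf+/+ cells and 0.01, -0.02 and 0.12 in Batf-/- cells. The Batf-/- arrays lay inside the range of the Batf+/+ arrays. The difference was 0.01 ± 0.14 (SE; 95% interval -0.30 to 0.32; limma adjusted p = 0.9999), and its sign was negative after quantile normalization (-0.0072). Its SE was the largest of the 7 annexins.

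Over the 17 probe sets, 0 passed the threshold, which 0.713% of all probe sets with 1 gene did. The difference was below 0 in 15 of 17, against 48.5% of all probe sets, and ran from -0.83 to 0.01 with a median of -0.15. The Batf-/- arrays were all below the Batf+/+ arrays on 5 of 17, against 6.24%, and the unadjusted p was below 0.05 in the lower direction on 4 of 17, against 3.9%. Probe sets of 1 gene share its transcripts and are not independent of each other.

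The annexins were compared with each other by the difference between 2 genes within each array, an exact two-sided permutation test whose smallest p with 3 arrays per genotype is 0.1. Together with the S100 comparisons described next, 35 such differences were tested and adjusted together. Of these, 14 set an annexin against S100a4 or S100a6, whose large decreases were already known, so they were bound to reach the smallest p. Their inclusion lowers the adjusted p of the annexin pairs. Of the 21 annexin pairs 5 reached that smallest p (Benjamini-Hochberg adjusted p = 0.184). These were Anxa1 against Anxa2, Anxa3, Anxa5 and Anxa7, and Anxa4 against Anxa7, with the gene named earlier in each pair being lower relative to its partner in Batf-/- cells, by log2 values from -0.43 to -0.25. In order of their differences, Anxa1 and Anxa4 differed by only -0.10 (exact permutation p = 0.6). This test cannot go below 0.1 here, so it could not separate any pair at the 0.05 level whatever the values.

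The S100 partners of the annexins divided. S100a4, a motility protein that binds Anxa2, was at -0.08, 0 and 0.14 in Batf+/+ cells and -3.36, -4.18 and -3.35 in Batf-/- cells. S100a6, which binds several annexins, was at 0, -0.01 and 0.23 against -2.73, -3.26 and -2.69. Neither gene had overlapping groups, and the differences were -3.64 ± 0.20 and -2.97 ± 0.15 (SE; limma adjusted p = 9.74e-05 and 6.17e-05).

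S100a10, the obligate partner of Anxa2 in the tetramer, was at 0.01, 0.03 and -0.10 in Batf+/+ cells and 0.02, -0.27 and -0.02 in Batf-/- cells, which overlap. Its difference was -0.07 ± 0.09 (SE; limma adjusted p = 0.9999; 95% interval -0.29 to 0.14), and its 3 probe sets lay at -0.27, 0.22 and -0.17. On 1416762_at, the probe set at -0.27, which is annotated by a RefSeq mRNA, all Batf-/- arrays were below all Batf+/+ arrays (limma adjusted p = 0.661). The difference of the gene ran from -0.13 to 0.02 when 1 array was left out, the latter without Batf-/- array 2. It was -0.17 with the median of probe sets, -0.14 with array weights and -0.02 without probe sets of shared sequence. S100a11, the partner of Anxa1, was not measured under the rule because its only probe set is shared with Gm12854 and S100a11-ps.

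Each annexin differed from S100a4 and from S100a6 by far more than from another annexin. Within arrays, annexin minus S100a4 or S100a6 was higher in Batf-/- cells by log2 values from 2.55 to 3.65 over the 14 pairs, with no overlap of genotypes in any of them and an exact permutation p of 0.1 in each, the smallest possible (Benjamini-Hochberg adjusted p = 0.184). For Anxa2 minus S100a4 the value ran from -0.04 to -0.0022 on the Batf+/+ arrays and from 3.15 to 3.91 on the Batf-/- arrays. S100a4 and S100a6 were named with their decreases already known, so the outcome of these 14 tests was set in advance.

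**Figure D3:**
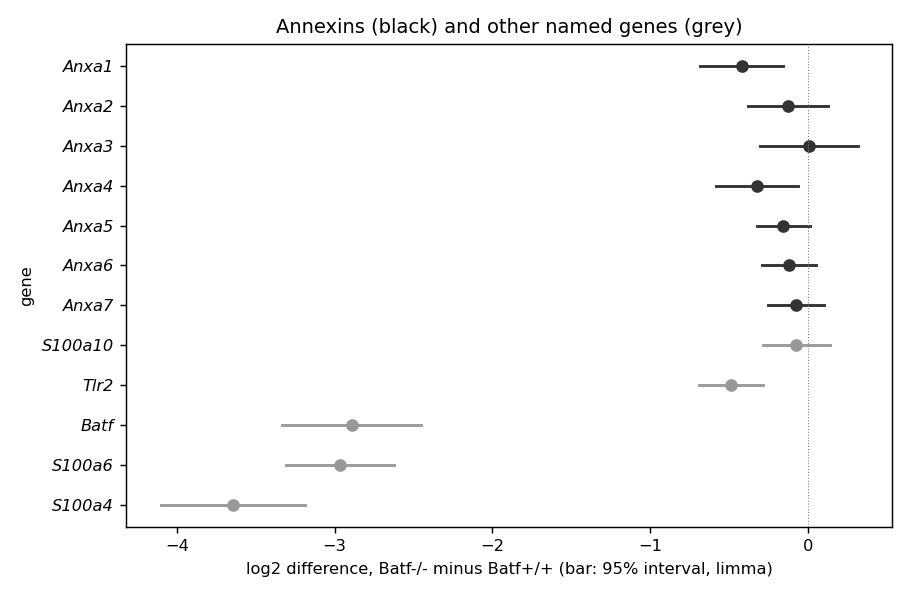
Log2 difference between Batf-/- and Batf+/+ Treg cells with its 95% interval from limma (horizontal axis) for the 7 annexins in black and for S100a10, Tlr2, Batf, S100a6 and S100a4 in grey. The annexins lie between -0.42 and 0.01, while S100a6 and S100a4 lie at -2.97 and -3.64.

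Of 28 measured genes in 3 lists of annexin partners 3 were called, all lower, against 1.14% of all genes in either direction and 0.83% in the lower one. Of these 3, S100a4 and S100a6 were listed with their decreases already known, so the count is not independent of the values. Of 11 measured S100 and other EF-hand partners 2 fell, S100a4 and S100a6, and 0 rose, with a median log2 difference of -0.07. Among the rest were S100a13, at -0.25 ± 0.09 (SE; limma adjusted p = 0.488), and Pdcd6 and Sri, the EF-hand proteins that bind Anxa7 and Anxa11, at -0.05 ± 0.07 and -0.06 ± 0.08. Of 9 genes of membrane repair and the AHNAK complex 0 passed in either direction by limma (median -0.01), and 1, Dysf, had an unadjusted p below 0.05. Ahnak, the scaffold of the Anxa2 and S100a10 complex, was at -0.14 ± 0.08 (limma adjusted p = 0.829), and Dysf, or dysferlin, at 0.24 ± 0.09 (limma adjusted p = 0.450).

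Of 8 measured receptors, plasminogen system genes and phospholipase, 1 fell and 0 rose, with a median of 0.01. This was Tlr2, a receptor for bacterial lipoproteins, at -0.14, 0 and 0.12 in Batf+/+ cells against -0.50, -0.42 and -0.56 in Batf-/- cells. The groups did not overlap, and the difference was -0.49 ± 0.09 (SE; 1.40-fold lower; limma adjusted p = 0.0422). Its only probe set, 1419132_at, was not called in the fit over probe sets (limma adjusted p = 0.0928). The call of the gene was lost without any 1 of the 6 arrays, at adjusted p of 0.052 to 0.171, and after quantile normalization (0.197). Fpr2, a receptor of Anxa1, was at 0.01 ± 0.08 (limma adjusted p = 0.9999), and Pla2g4a, the cytosolic phospholipase that Anxa1 inhibits, at 0.25 ± 0.08 (limma adjusted p = 0.340). The 4 other annexins on the array, Anxa8, Anxa9, Anxa10 and Anxa13, lay between -0.04 and 0.07, with 0 called by limma and 0 at an unadjusted p below 0.05.

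Batf itself was at -0.13, 0 and 0.14 in Batf+/+ cells and at -3.13, -3.16 and -2.37 in Batf-/- cells, so its 1 probe set followed the labels (difference -2.89 ± 0.19 SE, limma adjusted p = 0.000202). Its position relative to the deleted sequence was not analysed here. Of all genes, 1.14% were called and 0.83% were called lower, and 7.69% had an unadjusted p below 0.05. Of 8 measured Treg and T cell markers 0 passed the threshold by limma and 2 had an unadjusted p below 0.05. Their median was -0.11, near that of the annexins, and 6 of the 8 lay below 0. The mean of this list ran from -0.08 to 0.03 on the Batf+/+ arrays and from -0.15 to -0.10 on the Batf-/- arrays. All 6 measured effector Treg markers fell (median -1.52), markers whose decreases were in part known when they were listed, with a list mean of -0.04 to -0.01 on the Batf+/+ arrays and -1.78 to -1.52 on the Batf-/- arrays. Of 7 measured resting lymphoid markers 0 were called and 1 had an unadjusted p below 0.05, with a median of 0.20. In bulk samples, fewer cells of a type and less RNA per cell cannot be told apart, and the part of the effector share in the annexin values was not tested. The 9 lists of other cell types held 40 measured genes, of which 1 was called, Ccr2, a chemokine receptor also carried by T cells. An unadjusted p below 0.05 was reached by 7 of the 40, including 2 of 4 plasma cell genes, against 7.69% of all genes. Among those 7 only Ccr2 was lower in Batf-/- cells, and the others were higher. The list medians ran from -0.01 to 0.17, the highest being that of the erythroid and platelet list. The mean of the macrophage and monocyte list ran from -0.09 to 0.11 on Batf+/+ and from -0.29 to 0.09 on Batf-/- arrays. Without Ccr2, a check added after the values were seen, it ran from -0.11 to 0.12 and from -0.18 to 0.28. The plasma cell list ran from -0.08 to 0.03 and from 0.02 to 0.18, and the neutrophil list from -0.13 to 0.14 and from -0.20 to 0.03. Because levels are relative, it is not known whether these markers were near background.

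The annexin calls did not depend on the processing. The number of annexins called was 0 with each of the 13 alternatives that refit the data, and the smallest annexin adjusted p among the fits over genes was 0.112, for Anxa4 with the array number as a replicate block. For the probe set 1448213_at of Anxa1 the limma adjusted p ran from 0.0791, with array weights, to 0.370, after quantile normalization.

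**Figure D4:**
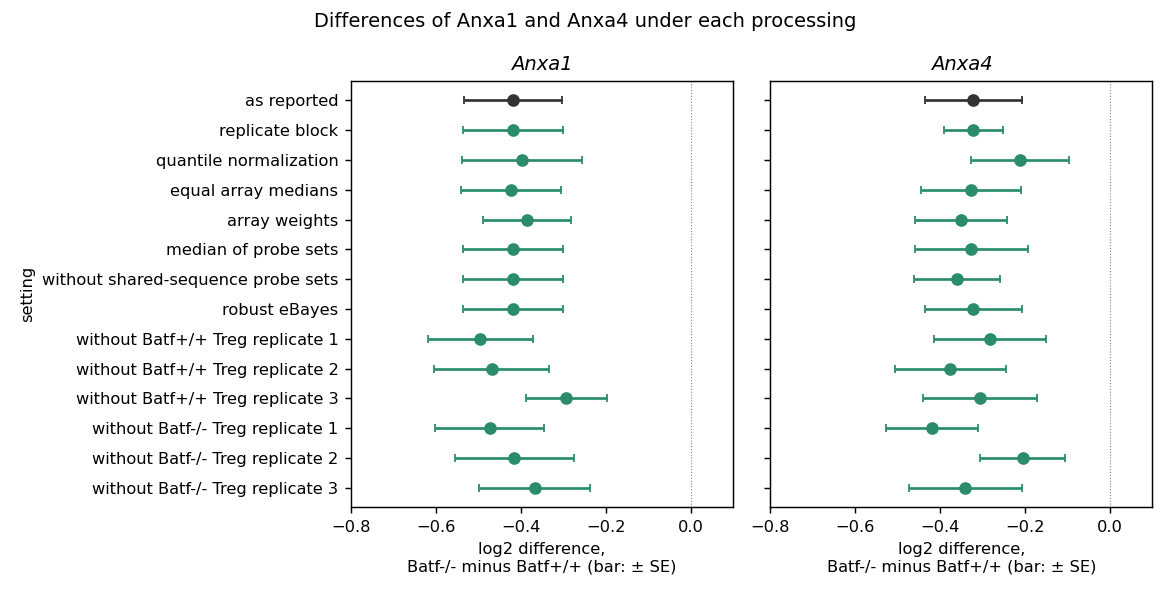
Log2 difference of Anxa1 (left) and Anxa4 (right) between Batf-/- and Batf+/+ Treg cells with its SE (horizontal axis), as reported and under each of 13 alternatives (vertical axis). The differences stayed below 0 in all of them, from -0.50 to -0.29 for Anxa1 and from -0.42 to -0.21 for Anxa4.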

How the data were processed

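Biotin-labelled targets were made from total RNA of 6 samples for expression arrays, per the labels' protocols, with a 3′ IVT kit. The deposited values were taken as log2 values: the submitters' processing notes name RMA, without version or log base. The middle Batf+/+ value is exactly 0 in all 45101 probe sets, so the deposited log2 values are relative to it. Absolute levels and signal over background are therefore unknown, and no filter on low values could be applied. The number of arrays limits precision.

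GEO's platform annotation named the probe sets (34945 with 1 gene), and a gene was the mean of its probe sets. Genotypes were compared with limma 3.58.1 in R 4.3.3 (lmFit, eBayes, genotype as the only term) over all 18193 genes, and over all probe sets with 1 gene, with Benjamini-Hochberg adjustment. The script was tested on simulated data.

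The members and lists were chosen with earlier results of these data known. Named genes were all annexins, Batf, S100a4, S100a6, S100a10, S100a11, up to 4 called genes of each partner list and the genes most like each called annexin, of which there were 0. Other genes were named after their values were seen.

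Arrays with the same number in their titles deviated together from their groups (correlation over genes 0.407, 0.154 and 0.413, against a minimum of 0.1). This pairing comes from the values, not the labels, and the main fit and the permutation tests did not use it. The fit with the number as a block is an alternative, in which the SE of Anxa4 was 0.07, against 0.11 in the main fit. The others were quantile normalization, equal array medians, array weights, the median of probe sets, leaving out probe sets with shared sequence, robust eBayes, a minimum of 1.5-fold and leaving out each array.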

Additional observations from a re-analysis of the deposited data

How the results depend on the processing

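The annexin count stayed at 0 in all 13 alternatives that refit the data (the 1.5-fold minimum could only lower it), and the differences of Anxa1, Anxa2, Anxa4, Anxa5, Anxa6 and Anxa7 stayed below 0 in them. With the replicate block 293 genes were called, 202 of them among the 208, with 91 higher, and no annexin call changed. Quantile normalization gives all arrays the same distribution. The centred values spread less on the Batf+/+ arrays (SD over genes 0.11 to 0.14) than on the Batf-/- arrays (0.21 to 0.23). Large differences shrank under it, Batf from -2.89 to -2.01 and S100a4 from -3.64 to -2.83, so lost calls there are not only a matter of noise. After this step 80 genes were called (58 lower and 22 higher), and Tlr2 was at -0.42. Tlr2 also missed the threshold with the median of probe sets (limma adjusted p = 0.0506). Leaving out 1 array gave 105 to 192 genes called, 73 to 141 lower and 31 to 51 higher, a design with fewer samples. Anxa3 changed sign after quantile normalization (-0.0072, gene and probe set) and ran from -0.13 to 0.16 when 1 array was left out. Probe sets near 0 changed sign too, with the cause not tested: 1416138_at of Anxa7 after quantile normalization (-0.0068) and with array weights (-0.0054), and 1437692_x_at of Anxa2 with array weights (0.0163). Without 1 array, 1416138_at ran from -0.0204 to 0.0576, 1438764_at of Anxa7 from -0.14 to 0.0697, 1437692_x_at from -0.13 to 0.12, 1419091_a_at of Anxa2 from -0.38 to 0.0019, 1442288_at of Anxa6 from -0.0744 to 0.0623, 1444016_at of Anxa1 from -0.0706 to 0.0454, and S100a10 from -0.13 to 0.0182. A filter on low levels was not run, because the values are centred.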
